A study of Mus musculus with 12 samples.

Results

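The genes described here encode the protein subunits of the mitochondrial ribosome. They were taken by symbol from 2 deposited tables of gene counts, as every gene whose symbol begins with Mrpl or Mrps followed by a digit. Pseudogenes were left out, which dropped 4 symbols ending in -ps. The rule gave 77 genes, each present in both tables, out of the 21976 genes that the tables shared. By the proteins' known positions 50 belong to the large subunit and 26 to the small subunit. Mrps30 and Mrps18a were placed in the large subunit despite their names. Mrps36, named as a small-subunit protein, is known as a component of the 2-oxoglutarate dehydrogenase complex and was placed in neither.

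The libraries hold skeletal muscle RNA of C57BL/6N mice, 3 for each of 4 groups. Feeding started at 6 weeks of age and went on for 18 weeks. The Chow group ate regular chow and the HFD group a high-fat diet, both without injection. The Vehicle and PCN groups also ate the high-fat diet. For 4 days they received a daily injection into the peritoneal cavity of 30% DMSO in corn oil (Vehicle) or of 50 mg/kg PCN, pregnenolone carbonitrile, a steroid that activates the rodent pregnane X receptor. Neither the muscle sampled nor the sex of the mice is given in the sources used here, and the labels do not say that each library came from a separate animal. The p-values therefore measure the spread between these libraries, which may be technical.

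The mitochondrial ribosome translates only the few messages of the mitochondrial genome, all of which encode core subunits of the respiratory chain and of ATP synthase. Its RNAs come from that genome, but every one of its proteins is encoded in the nucleus, made in the cytosol and imported. Part of the set descends from bacterial ribosomal proteins, and the rest was added during the evolution of mitochondria. In oxidative tissues such as muscle, transcription of many nuclear genes for mitochondrial proteins is known to be driven by NRF1, by GABPA, a factor of the ETS family, and by YY1, often with the coactivator PGC-1alpha, the product of Ppargc1a.

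Promoter sequence of the members was set beside that of other genes as a description only. RefSeq windows from 250 bases before to 50 bases after a transcription start were found for 68 of the 77 members. Both strands were searched for an NRF1 motif of 10 bases, for CCGGAAG (an ETS motif) and for AAGATGGC (a YY1 motif). Matches that overlapped another match were counted. At least 1 of them was present for 61.8% of the 68 members, against 16.4% of all 27025 genes with a window and 32.1% of the 9878 among them that were expressed well enough to be tested here. The ETS motif was found for 25 members (36.8%, against 19.9% of the tested genes and 9.93% of all genes). The NRF1 motif was found for 13 (19.1%, against 11.4% and 5.19%) and the YY1 motif for 12 (17.6%, against 5.31% and 3.19%). The nuclear genes of oxidative phosphorylation held at least 1 motif in 56.7% and the cytosolic ribosomal protein genes in 55.4%. The windows of the 3 members with the lowest p in HFD against Chow are printed below on their coding strand, from RefSeq on GRCm38.p6, with motif matches in capitals. That of Mrpl14 (chr17:45686099-45686398, plus strand) holds an NRF1 match, that of Mrpl52 (chr14:54426659-54426958, plus strand) 2 ETS matches, and the downstream one of the 2 windows of Mrps16 (chr14:20393441-20393740, minus strand) 2 ETS matches. The other window of Mrps16, and that of Mrpl10, the member of next lowest p, held no match to any of the motifs and are not printed.
Mrpl14: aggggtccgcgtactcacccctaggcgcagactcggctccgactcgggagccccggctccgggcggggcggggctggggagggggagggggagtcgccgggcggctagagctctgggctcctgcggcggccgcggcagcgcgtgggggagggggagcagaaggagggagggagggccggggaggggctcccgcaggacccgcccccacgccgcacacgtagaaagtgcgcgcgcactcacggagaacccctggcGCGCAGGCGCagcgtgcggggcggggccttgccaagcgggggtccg
Mrpl52: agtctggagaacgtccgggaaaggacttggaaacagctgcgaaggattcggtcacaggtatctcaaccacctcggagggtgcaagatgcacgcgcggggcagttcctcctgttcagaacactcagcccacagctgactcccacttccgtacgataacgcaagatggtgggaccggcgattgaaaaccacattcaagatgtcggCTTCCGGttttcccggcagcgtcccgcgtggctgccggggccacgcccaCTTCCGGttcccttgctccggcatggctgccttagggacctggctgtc
Mrps16: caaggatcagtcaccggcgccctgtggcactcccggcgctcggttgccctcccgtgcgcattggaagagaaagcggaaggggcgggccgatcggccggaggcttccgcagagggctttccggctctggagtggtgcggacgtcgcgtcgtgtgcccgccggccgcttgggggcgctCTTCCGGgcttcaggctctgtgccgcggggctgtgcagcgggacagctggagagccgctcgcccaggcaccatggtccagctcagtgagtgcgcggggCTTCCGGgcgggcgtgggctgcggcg

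These matches are stretches of letters, not measured binding sites. Within the 68 members, the median log2 fold change of HFD against Chow was -0.21 for the 25 with the ETS motif and -0.26 for the 43 without it, and -0.19 for the 13 with the NRF1 motif and -0.26 for the 55 without it. With and without the YY1 motif it was -0.22 and -0.25. For Vehicle against HFD the medians with and without a motif were 0.28 and 0.30 (ETS), 0.23 and 0.30 (NRF1) and 0.32 and 0.29 (YY1). None of these differences was tested.

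Library totals ran from 12770308 to 19739226 counts. Levels are given as CPM, the share of a library's counts scaled to a common total, after TMM normalisation, which corrects for differences in library composition, over all 12 libraries. Of the 8 skeletal muscle fibre markers, Myh2 was not in both tables, for a reason not examined here. The others were present throughout (Acta1 at 9570 to 17600 CPM). Of the 10 slow-fibre markers, 3 (Tpm3, Myh7b and Casq2) were in both tables. The others, among them Myh7 and Tnnc1, were not, for a reason not examined here, so the sum leaves out most of the list. The summed level of the 3 stood out in PCN 5 (141 CPM), Chow 17 (120 CPM), Chow 19 (114 CPM) and Vehicle 55 (68.5 CPM), against 16.6 to 40.3 CPM elsewhere. For the 7 adipocyte markers the Chow libraries summed to between 517 and 841 CPM, HFD to between 274 and 954, Vehicle to between 269 and 1071, and PCN to between 269 and 1153. The 7 macrophage markers gave 34.6 to 66.6 CPM (Chow), 36.9 to 101 (HFD), 36.8 to 73.8 (Vehicle) and 50.8 to 62.1 (PCN). All of these 17 markers had counts in every group. Lpl was the largest part of the adipocyte sum in every library, so this sum need not follow the other adipocyte markers. In PCN 5, which had the highest sum, Lpl stood at 1050 CPM, Adipoq at 4.21 and Plin1 at 2.17. In Chow 19 Lpl stood at 451 CPM. Adipoq was at 0.898 CPM there, against 35.1 in Chow 8 and 17.2 in Chow 17. Adipoq, Plin1, Cidec and Lep were lowest of all 12 libraries in Chow 19, while Fabp4 and Cfd were lowest in HFD 4. The 5 fibroblast markers summed to 406 to 624 CPM (Chow), 417 to 743 (HFD), 277 to 406 (Vehicle) and 246 to 386 (PCN), so that every Vehicle and PCN library lay below every HFD library. Of the 5, only Col1a1 and Col3a1 had this order singly. Dcn, Pdgfra and Lum overlapped between HFD and the injected groups, with Dcn at 138 to 233 CPM (HFD), 171 to 238 (Vehicle) and 173 to 223 (PCN). The 4 erythroid markers summed to 66.0 to 128 CPM (Chow), 43.1 to 56.1 (HFD), 41.6 to 202 (Vehicle) and 61.2 to 70.1 (PCN), so that every HFD library lay below every Chow library. Hbb-bs and Alas2 had this order singly. Hba-a1 (11.1 CPM in Chow 19, 11.2 in HFD 38) and Hba-a2 (3.89 in Chow 8, 3.98 in HFD 4) overlapped. The 4 endothelial markers summed to 104 to 127 CPM (Chow), 84.4 to 113 (HFD), 73.6 to 115 (Vehicle) and 72.6 to 125 (PCN). Singly, Kdr and Tek were lower in every HFD library than in every Chow library, and Pecam1 and Cdh5 overlapped. The part of fibre type, fibroblasts, blood and other cells in the results below was not tested.

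All 77 members were expressed. The number of counts behind a member in a library ran from 22 (Mrps6) to 2555 (Mrpl42), with a median over members of 179 in the least covered library of each. To compare genes, CPM was divided by exonic length in kilobases, the merged length of all annotated exons. A long, rarely used exon lowers this value. On this scale the members spread from 1.25 to 51.9 CPM per kb with a median of 6.89, above the median of 1.90 CPM per kb of all 13372 tested genes with a length and below those of the cytosolic ribosomal protein genes (37.6) and the nuclear oxidative phosphorylation genes (69.5).

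The highest members were Mrps21 (51.9 CPM per kb), the counterpart of bacterial S21, Mrpl54 (36.0), specific to mitochondria, Mrpl42 (31.6), also specific to mitochondria and the highest in CPM at 116, Mrpl2 (30.6), whose bacterial counterpart lies at the catalytic centre, and Mrps28 (30.3). The lowest were Mrpl33 (1.25), Mrps35 (1.38), Mrps10 (1.64), Mrps6 (1.69) and Mrpl13 (2.08). Of these 5, 4 have exon models of 7.33 to 8.63 kb, and Mrps6 has one of 1.53 kb and the lowest CPM of all members, 2.59. The median was 7.92 CPM per kb for the 30 large-subunit proteins with a bacterial counterpart and 8.67 for the 20 specific to mitochondria, and 4.39 and 4.57 for the 16 and 10 of the small subunit. The plot of levels per kilobase shows that both subunits span nearly the whole range.

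**Figure D1:**
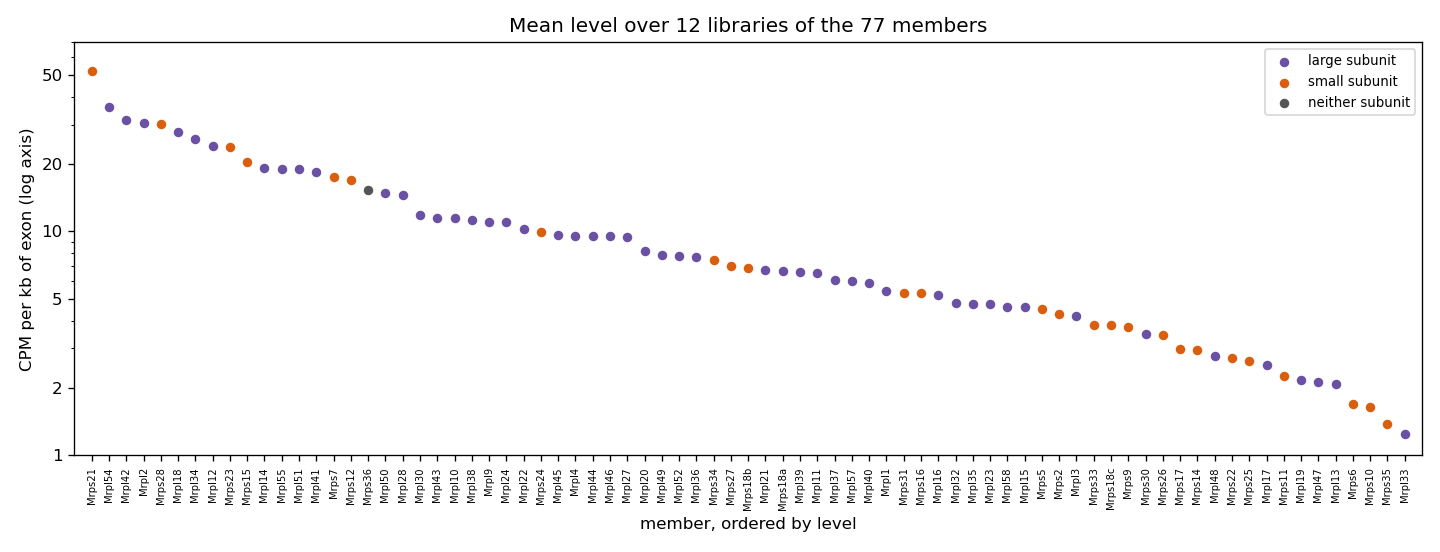
Mean level of each of the 77 members over the 12 libraries, in CPM per kb of exon on a log axis, ordered from highest to lowest, with the colour giving the subunit. The members run from 51.9 (Mrps21) to 1.25 (Mrpl33), and members of the large and small subunits are interleaved.

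In some libraries the members lay mostly on the same side of their own means, and in others they were mixed. The summed level of the members was 1700, 2056 and 1439 CPM in Chow 8, 17 and 19. In HFD 4, 30 and 38 it was 1347, 1443 and 1480 CPM. In Vehicle 15, 23 and 55 it was 1695, 1786 and 1758 CPM, and in PCN 5, 11 and 27 it was 1808, 1884 and 1640 CPM. The 3 HFD libraries and Chow 19 were therefore the low ones, every Vehicle and PCN library lay above every HFD library, and Chow spanned most of the range. Large-subunit and small-subunit sums kept a ratio of 2.46 to 2.74 in all 12 libraries.

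Counted gene by gene, HFD had the lowest mean of the 4 groups for 68 of the 77 members, PCN for 7, Vehicle for 2 and Chow for 0. The highest mean was in PCN for 35, in Chow for 24 and in Vehicle for 18. Of the 77 members, 74 lay above their own 12-library mean in Chow 17, but only 8 did in Chow 19 and 5, 9 and 11 in HFD 4, 30 and 38. The other libraries were more mixed, with 41 above in Chow 8, and 46, 55 and 61 in Vehicle 15, 23 and 55. In PCN 5, 11 and 27 the counts were 59, 62 and 37. These counts were not made over all genes, so no background share stands beside them. The summed levels of the cytosolic ribosomal protein genes and the nuclear oxidative phosphorylation genes also had their lowest group mean in HFD (5441 and 11700 CPM).

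**Figure D2:**
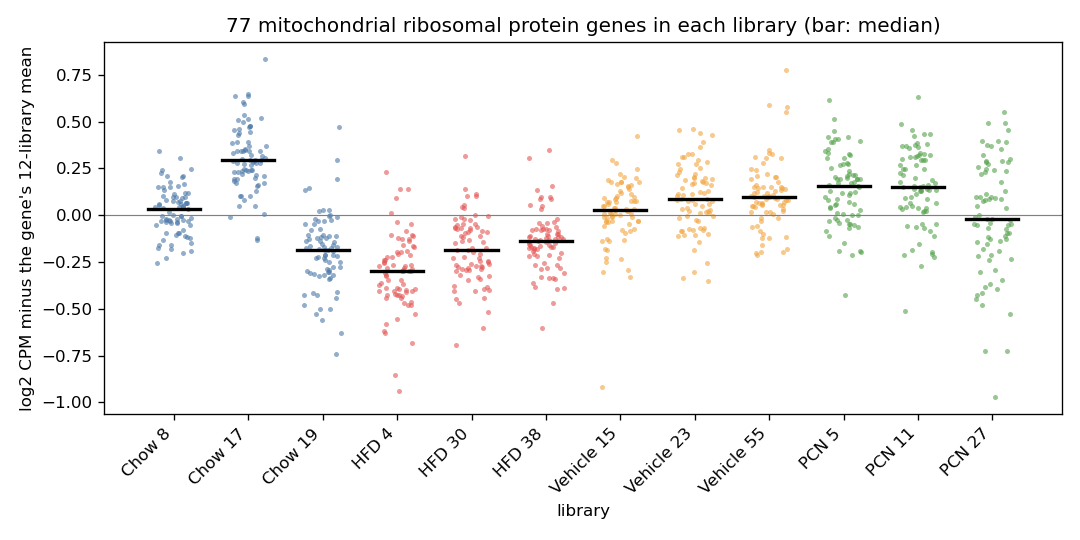
Each point is 1 of the 77 members in 1 of the 12 libraries, plotted as log2 CPM minus that gene's mean over the libraries, and the black bar is the median. Medians lie between -0.30 (HFD 4) and -0.14 (HFD 38) in HFD, between 0.03 and 0.09 in Vehicle, and between -0.18 (Chow 19) and 0.29 (Chow 17) in Chow.

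The first comparison asked how the high-fat diet differed from chow. All 77 members had a lower fitted level in HFD than in Chow, and 0 a higher one, where 49.9% of all 12686 genes tested were lower and 50.1% higher, and the median log2 fold change was -0.24 (quartiles -0.33 and -0.16) against 0.00 over all genes. No single member passed. By edgeR's quasi-likelihood test 0 of the 77 were below the 0.05 threshold after adjustment (0.0% of all genes were, lowest member adjusted p = 0.539). Before adjustment 9 were, all lower (11.7%, against 3.92% of all genes lower and 3.78% higher). DESeq2 gave 0 after adjustment, against 0.342% of all genes with an adjusted p. Before adjustment it gave 5 (6.49%, against 3.76% of all genes with a p). The HFD and Chow libraries did not overlap for 8 members, all lower in HFD (10.4%, against 6.39% of all genes lower and 6.38% higher). In bulk muscle, fewer cells of a type and less RNA per cell cannot be told apart.

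Both subunits shifted alike. The median was -0.23 for the 50 large-subunit genes and -0.25 for the 26 small-subunit genes, with 7 and 2 of them at an unadjusted p under 0.05. Those are 14.0% and 7.69%, against 7.7% of all genes. By origin it was -0.25 and -0.21 for large-subunit proteins with a bacterial counterpart and specific to mitochondria, and -0.28 and -0.18 for those of the small subunit. No difference between these classes was tested.

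Mrpl14 is the large-subunit protein at which the assembly factor Malsu1 docks (chromosome 17, 45686322 to 45698495). The libraries Chow 8, 17 and 19 had 17.0, 27.4 and 20 CPM, and HFD 4, 30 and 38 had 10.9, 14.7 and 14.4 CPM. Every HFD library lay below every Chow library, and the log2 fold change, -0.67 ± 0.19 (SE, n = 3 against 3), was the largest among the members (edgeR adjusted p = 0.539). Its exons overlap those of Tmem63b on the other strand, whose reads could not be separated from its own without a stated strand setting.

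Mrpl52, specific to mitochondria (chromosome 14, 54426909 to 54429756), had 8.43, 9.45 and 8.64 CPM in libraries Chow 8, 17 and 19, against 6.30, 5.58 and 6.93 CPM in HFD 4, 30 and 38. The groups did not overlap (log2 fold change -0.48 ± 0.17, SE). Mrps16, the counterpart of bacterial S16 (chromosome 14, 20389304 to 20393634), had 14.5, 15.9 and 11.8 CPM in these Chow libraries, against 9.64, 11.2 and 10.7 CPM in these HFD libraries. Here too the groups were apart, with Chow 19 closest to HFD (-0.40 ± 0.15, SE). Mrpl10, which anchors the stalk that recruits translation factors, had a log2 fold change of -0.40 ± 0.15 (SE). Its groups were only just apart, with 17.3 CPM in Chow 19 and 17.1 CPM in HFD 30.

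Mrpl42, the most abundant member in CPM (chromosome 10, 95480805 to 95501940), had 140, 164 and 84.4 CPM in libraries Chow 8, 17 and 19, against 90.9, 86.9 and 89.9 CPM in HFD. Chow 19 thus lay below every HFD library, so the groups overlapped (-0.52 ± 0.21, SE). The other members of lowest p were Mrpl13 (-0.41 ± 0.17, SE), Mrps5, near the decoding site (-0.39 ± 0.17), Mrpl30 (-0.39 ± 0.17), Mrpl41 (-0.46 ± 0.20), Mrps36 (-0.38 ± 0.17), Mrps15 (-0.29 ± 0.14) and Mrps2 (-0.29 ± 0.14). Mrps15 and Mrps2 had groups that did not overlap.

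Members picked for their role rather than their values lay along the same range. At the stalk, Mrpl12 averaged 41.7 ± 7.29 CPM (SD, n = 3) for Chow and 32.7 ± 8.60 CPM for HFD, and Mrpl11 at the stalk base was at 19.3 ± 6.15 and 16.7 ± 2.17 CPM, with a log2 fold change that turned from -0.19 to 0.05 without Chow 17. Mrps12, the counterpart of the bacterial protein of the decoding centre, was at 18.4 ± 2.10 and 15.1 ± 1.27 CPM, and Mrps7 of the small-subunit head at 35.8 ± 4.61 and 29.0 ± 2.99 CPM. Mrpl58, a peptidyl-tRNA hydrolase that has become part of the ribosome, was at 16 ± 3.34 and 12.1 ± 1.74 CPM.

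Smaller differences were seen for Mrpl45, which tethers the ribosome to the inner membrane (27.7 ± 6.48 CPM in Chow and 24.5 ± 2.41 in HFD), Mrpl3, near the catalytic centre (29.4 ± 4.04 and 28.7 ± 2.60 CPM), and Mrpl44, which carries a ribonuclease III fold (15.7 ± 3.05 and 15.3 ± 0.653 CPM). Without Chow 17 these 3 turned to the other side of 0, at log2 fold changes of 0.03, 0.09 and 0.11. The 3 paralogues of bacterial S18 sit at different places in the ribosome. Mrps18c, in the position of the bacterial protein, was at 3.88 ± 1.28 and 3.66 ± 0.343 CPM, Mrps18b, elsewhere in the small subunit, at 14.4 ± 2.64 and 12 ± 2.36 CPM, and Mrps18a, in the large subunit, at 25.6 ± 3.92 and 22.3 ± 0.734 CPM. Mrps18c also turned, to 0.11, without Chow 17.

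**Figure D3:**
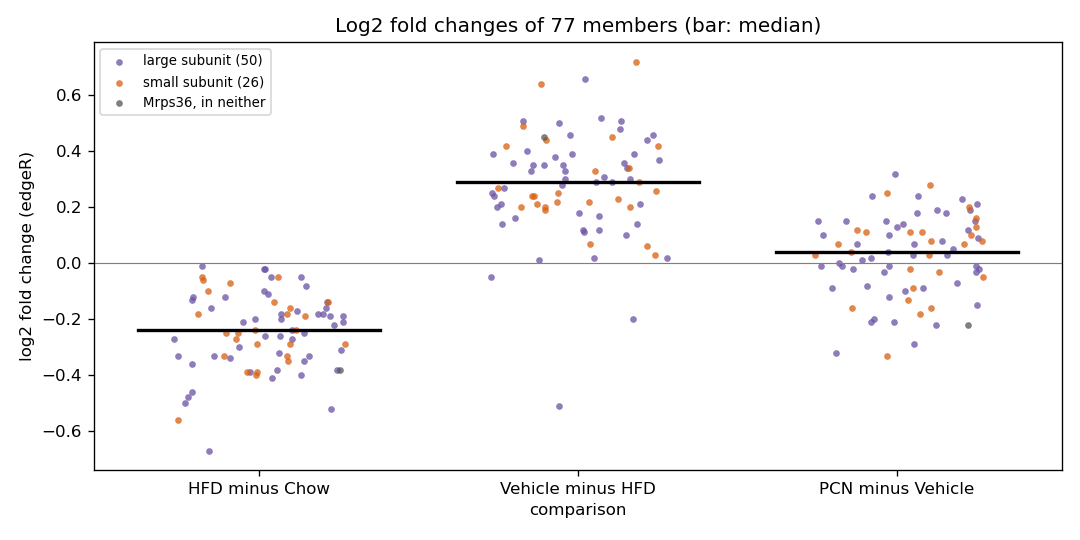
Log2 fold change of each of the 77 members in the 3 comparisons, coloured by subunit, with a bar at the median (-0.24 for HFD minus Chow, 0.29 for Vehicle minus HFD and 0.04 for PCN minus Vehicle). All points lie below 0 in the first comparison, 3 of 77 lie below 0 in the second, and the points for PCN minus Vehicle are centred near 0. Neighbouring comparisons share the HFD or the Vehicle libraries.

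The size of the diet difference depended on the Chow libraries. Without Chow 17 the median was -0.12, 64 of 77 members were lower and 2 had an unadjusted p under 0.05 (2.60%, all genes 3.67%). Without Chow 19 the median was -0.36 and 39 had such a p (50.6%, all genes 16.9%). Mrpl42 then passed (edgeR adjusted p = 0.0243), 1 of 77 or 1.30%, where 1.69% of all genes passed. The count of 9 also went to 2 without Chow 8 (2.60%, all genes 6.19%), 4 without HFD 30 (5.19%, all genes 4.76%) and 2 without HFD 4 (2.60%, all genes 4.69%). With Chow 17 and Chow 19 both left out the median was -0.23, with 68 members lower and the lone Chow 8 assumed to vary like the HFD libraries.

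Related gene groups gave the following values in the same fit. Median log2 fold changes were -0.39 for the nuclear genes of oxidative phosphorylation (82 of 82 lower), -0.38 for the cytosolic ribosomal protein genes (79 of 80) and -0.38 for the protein genes of the mitochondrial genome (11 of 11). Fold changes also moved with gene length. With all genes split into 5 classes by exonic length, the median was -0.12 in the shortest class (median 1.71 kb) and 0.10 in the longest (10.1 kb). The 38 members in the shortest class had a median of -0.26 and the 5 in the longest -0.14. With the length trend over all genes subtracted, the median of the 77 was -0.18 and 70 were lower.

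The next comparison set Vehicle against HFD, 2 groups on the same diet that differ by the vehicle injections and lie in different tables. What the injection, the vehicle and any difference in how the tables were made contributed cannot be told apart. All 4 groups were fitted together. Of the 77 members 74 had a higher fitted level in Vehicle, where 49.9% of all 13375 genes were higher and 50.1% lower, with a median log2 fold change of 0.29 (quartiles 0.20 and 0.39) against 0.00 over all genes. None passed by edgeR's quasi-likelihood test (0 of 77, 0.0% of all genes, lowest member adjusted p = 0.206). DESeq2 gave an adjusted p to 43 of the 77, of which 0 passed (5.81% of all genes with one did). It had 21 of the 77 below 0.05 before adjustment (27.3%, against 7.95% of all genes with a p). In edgeR, 21 members were higher at an unadjusted p under 0.05 (27.3%, against 6.26% of all genes) and 1 was lower (1.30%, against 6.51%). Vehicle libraries lay entirely above HFD libraries for 46 members (59.7%, against 11.8% of all genes) and entirely below for 1 (1.30%, against 11.0%). The HFD libraries are the same as in the diet comparison, so the 2 results do not stand independently.

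Mrps16 had the lowest p. It was at 9.64, 11.2 and 10.7 CPM in HFD 4, 30 and 38 and at 15.6, 20.3 and 16.3 CPM in Vehicle 15, 23 and 55. The groups were well apart (log2 fold change 0.72 ± 0.16, SE, edgeR adjusted p = 0.206), and in a fit of these 6 libraries alone it was the 1 member to pass (edgeR adjusted p = 0.0486), where 1.51% of all genes passed against 1.30% of members. In that fit 34 members had an unadjusted p under 0.05 (44.2%, all genes 17.8%). Mrpl52 was at 9.41, 11.4 and 8.96 CPM in Vehicle, above all 3 HFD libraries (0.66 ± 0.17, SE). Mrps7 was at 40.0, 41.1 and 38.1 CPM in Vehicle against 25.7, 29.6 and 31.6 CPM in HFD (0.45 ± 0.15, SE), with no overlap.

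The other members of lowest p were Mrpl30 (0.52 ± 0.17, SE), Mrps15 (0.44 ± 0.15), Mrpl27, whose bacterial counterpart reaches into the catalytic centre (0.48 ± 0.17), Mrpl57, specific to mitochondria (0.50 ± 0.18), and Mrpl58 (0.46 ± 0.17). Each had Vehicle libraries that lay above every HFD library. The large-subunit median was 0.30, with 47 of 50 higher, and the small-subunit median 0.25, with 26 of 26 higher.

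Mrpl19, the counterpart of bacterial L19 at the subunit interface (chromosome 6, 81957851 to 81965958), went the other way and is singled out here after its values were seen. Libraries Chow 8, 17 and 19 had 12.8, 15.4 and 15.7 CPM, and HFD 4, 30 and 38 had 13.3, 14.1 and 14.4 CPM. Vehicle 15, 23 and 55 had 10.3, 8.86 and 10.4 CPM, and PCN 5, 11 and 27 had 8.42, 11.5 and 5.77 CPM. All 6 injected libraries lay below all 6 uninjected ones. Its log2 fold change was -0.51 ± 0.21 (SE) for Vehicle against HFD, -0.05 ± 0.14 for HFD against Chow and -0.20 ± 0.25 for PCN against Vehicle. Its exons overlap those of Gcfc2 on the other strand. The other members lower in Vehicle were Mrpl3 (-0.20 ± 0.18) and Mrpl47 (-0.05 ± 0.22).

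Leaving out a library left 69 to 74 of the 77 higher in Vehicle. The 22 members at an unadjusted p under 0.05 became 11 without HFD 30 (14.3%, all genes 8.5%), 9 without HFD 4 (11.7%, all genes 9.52%) and 5 without Vehicle 23 (6.49%, all genes 6.95%). In the same fit the cytosolic ribosomal protein genes had a median of 0.61 (80 of 81 higher), the nuclear oxidative phosphorylation genes 0.28 (78 of 82 higher) and the protein genes of the mitochondrial genome 0.15 (7 of 12 higher). Gene length moved with this comparison too, from a median over all genes of 0.17 in the shortest class to -0.14 in the longest, while the members' median was 0.33 in the shortest and 0.12 in the longest. With the length trend subtracted, the median of the 77 was 0.18 and 67 were higher.

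**Figure D4:**
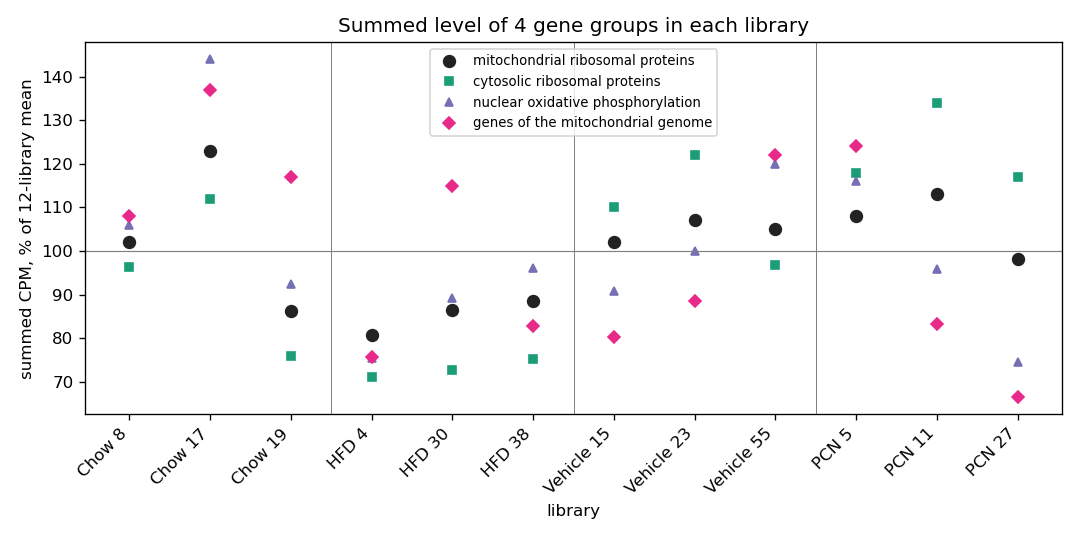
Summed CPM of 4 gene groups in each library, as a percentage of that group's mean over the 12 libraries. The mitochondrial ribosomal proteins lie between 80.7% and 88.6% in HFD, between 102% and 107% in Vehicle, between 98.2% and 113% in PCN, and between 86.2% (Chow 19) and 123% (Chow 17) in Chow.

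In 10 of the 12 libraries, all but HFD 4 and PCN 5, the members' value lay between those of the cytosolic ribosome and of the nuclear oxidative phosphorylation genes. In PCN 11 the mitochondrial ribosomal proteins stood at 113% of their 12-library mean, the cytosolic ribosomal proteins at 134% and the nuclear oxidative phosphorylation genes at 95.8%. In PCN 27 the values were 98.2%, 117% and 74.4%. In Chow 17 the order was reversed, at 123%, 112% and 144%. These are descriptions of single libraries and no relation between the groups was tested.

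The last pairwise comparison asked what PCN did beyond its vehicle. The members were nearly balanced, with 45 of 77 higher in PCN and 32 lower (52.3% and 47.7% of all 12833 genes) and a median log2 fold change of 0.04 against 0.01 over all genes. By edgeR's quasi-likelihood test 0 members passed (0.0% of all genes, lowest member adjusted p = 0.998). Before adjustment 0 were below 0.05, against 1.35% of all genes higher and 1.47% lower, and DESeq2 gave 0 and 0. The PCN libraries lay entirely above the Vehicle libraries for 5 members (6.49%, against 4.40% of all genes) and entirely below for 2 (2.60%, against 4.08%). The members' log2 fold changes ran from -0.33 to 0.32.

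Mrps30, a large-subunit protein despite its name (chromosome 13, 118378381 to 118387252), was at 21.4, 25 and 23.7 CPM in Vehicle 15, 23 and 55 and at 30.3, 23.9 and 33.4 CPM in PCN 5, 11 and 27. PCN 11 lay within the Vehicle range (0.32 ± 0.17, SE). Mrps26 was at 14.7, 14.0 and 15.8 CPM in Vehicle and at 18.3, 16.4 and 19.4 CPM in PCN, with no overlap (0.28 ± 0.15, SE). Mrpl11 was at 22.5, 21.4 and 22.3 CPM in Vehicle and at 27.4, 26.7 and 24.1 CPM in PCN, also without overlap (0.24 ± 0.14, SE). Mrpl27 was lower, at 11.3, 10.6 and 11.7 CPM in Vehicle and 9.0, 10.1 and 8.35 CPM in PCN (-0.29 ± 0.17, SE).

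Mrpl24 (0.23 ± 0.16, SE), Mrpl28 (-0.32 ± 0.23), Mrpl50 (-0.22 ± 0.16) and Mrps18b (0.25 ± 0.18) completed the members of lowest p and had overlapping groups. The large-subunit median was 0.03 and the small-subunit median 0.07. In the same fit the cytosolic ribosomal protein genes had a median of 0.17 (77 of 80 higher) and the nuclear oxidative phosphorylation genes -0.11 (74 of 82 lower). The members' median turned to -0.02 without PCN 11, and 57 of 77 were higher without PCN 27. With PCN 5 and Vehicle 55, the libraries of high slow-fibre level in these groups, left out together, it was 0.02.

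**Figure D5:**
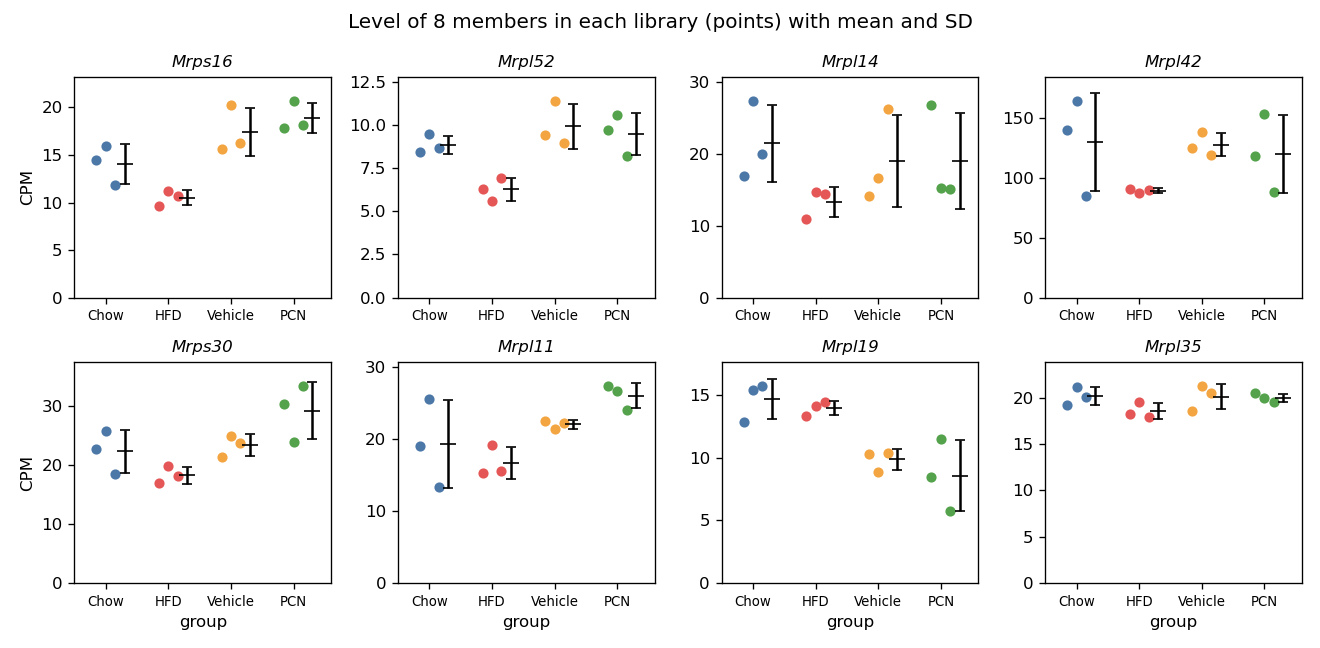
CPM of 8 members in each library (points) with the group mean and SD (bars, n = 3). Mrps16, Mrpl52 and Mrpl14 are lowest in HFD, Mrpl42 has 1 Chow library at the HFD level, Mrps30 and Mrpl11 are highest in PCN, Mrpl19 is lower in Vehicle and PCN than in Chow and HFD, and Mrpl35 spans 18.0 to 21.3 CPM over all 12 libraries.

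A test for any difference among the 4 groups found 0 of 77 members past the threshold by edgeR's quasi-likelihood F test (0.179% of all 13375 genes passed). Unadjusted, 12 members (15.6%) had a p under 0.05, where 15.5% of all genes did. That count was 19 without Chow 17 (24.7%, all genes 14.6%), 25 without Chow 19 (32.5%, all genes 16.3%), 7 without HFD 30 (9.09%, all genes 11.1%) and 6 without HFD 4 (7.79%, all genes 11.6%). Mrps16 came closest (adjusted p = 0.0763). DESeq2's likelihood ratio test called 3 members, Mrps16 (adjusted p = 0.00172), Mrpl19 (adjusted p = 0.0268) and Mrps30 (adjusted p = 0.0480), which is 3.90% of the members where 6.56% of all genes with an adjusted p passed. By edgeR Mrps16 passed without Chow 19 (adjusted p = 0.0391, where 1.58% of all genes passed) and Mrpl19 without PCN 11 (adjusted p = 0.0326, where 1.35% did). The means of Mrps16 were 14.1 ± 2.11 CPM (Chow), 10.5 ± 0.813 (HFD), 17.4 ± 2.5 (Vehicle) and 18.9 ± 1.59 (PCN, SD, n = 3), where the neighbouring Vehicle and PCN, and Chow and Vehicle, overlapped within their spread.

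The variation of the members over the libraries is described here without that of all genes beside it. The coefficient of variation over the 12 libraries had a median of 17.4%, and the highest level of a member was a median of 1.77 times its lowest. Mrpl35, the counterpart of bacterial L35 (chromosome 6, 71812997 to 71826969), was the steadiest at 5.49%, between 18.0 CPM in HFD 38 and 21.3 CPM in Vehicle 23. Mrps6 was the most variable at 38.8%, between 1.28 CPM in Vehicle 15 and 4.31 CPM in Chow 17, with 22 to 77 counts behind each value. Mrpl35 and Mrps6 are named here after their values were seen.

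Exons of 30 members overlap exons of another gene of the tables, on the opposite strand for 26. Mrpl46 and Mrps11 overlap each other on chromosome 7 (78775236 to 78783531 and 78783119 to 78792989). Their log2 fold changes for HFD against Chow were -0.31 ± 0.22 and -0.06 ± 0.22 (SE). Mrpl46 and Mrps11 lie on opposite strands. Without a stated strand setting it is not known whether reads in the shared stretch were assigned to either. Mrps6 overlaps Slc5a3 and Gm49711 on its own strand.

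The other genes of mitochondrial translation were followed with a list of 69, all tested. In HFD against Chow 0 passed by edgeR, 53 were lower and the median was -0.14, with 3 at an unadjusted p under 0.05, all lower. That is 4.35% of the list against 3.92% of all genes lower and 3.78% higher, a share near the background. Fars2, the mitochondrial phenylalanyl-tRNA synthetase, averaged 24.1 ± 3.50 CPM (SD, n = 3) for Chow and 15.8 ± 2.10 for HFD (-0.60 ± 0.15, SE), without overlap. Eral1, a chaperone of the small ribosomal RNA, had a log2 fold change of -0.40 ± 0.17, the rRNA methyltransferase Mrm1 -0.73 ± 0.32 and the nuclear receptor Esrra -0.35 ± 0.16. The 5 mitoribosomal proteins with other names (Dap3, Ptcd3, Chchd1, Aurkaip1 and Gadd45gip1) were all lower, with log2 fold changes of -0.25 to -0.17.

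In Vehicle against HFD 0 of the 69 passed, 48 were higher and the median was 0.10, with 4 at an unadjusted p under 0.05, 2 in each direction. That is 5.80% of the list against 12.8% of all genes. Malsu1, the assembly factor that binds Mrpl14, was at 16.9 ± 1.02 CPM in HFD and 25.3 ± 4.71 in Vehicle (0.57 ± 0.22, SE), and Aurkaip1, a small-subunit protein, had 0.35 ± 0.15. Ppargc1a was lower in Vehicle, at 39.3 ± 10.9 CPM against 79.5 ± 9.81 in HFD (-1.02 ± 0.38), as was Lars2, the leucyl-tRNA synthetase, at 7.65 ± 2.59 against 15.5 ± 1.41 CPM (-1.02 ± 0.34). The 5 mitoribosomal proteins with other names were again on the members' side, at 0.06 to 0.40.

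In PCN against Vehicle 0 of the 69 passed, 46 were higher and the median was 0.07, with 2 at an unadjusted p under 0.05, both higher. That is 2.90% of the list against 2.82% of all genes, a share near the background. Ears2, the glutamyl-tRNA synthetase, averaged 5.29 ± 0.541 CPM for Vehicle and 8.43 ± 2.36 for PCN (0.67 ± 0.23, SE), and Mrrf, the ribosome recycling factor, at 10.5 ± 0.938 and 14.3 ± 1.85 CPM (0.45 ± 0.17). Mtg1 and Ngrn, both of large-subunit assembly, had log2 fold changes of 0.38 ± 0.17 and 0.35 ± 0.16. The groups did not overlap for any of these 4 genes.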

How the data were processed

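The values are raw counts for each Ensembl gene, which the authors deposited in 2 tables of 6 libraries, HFD with Chow and PCN with Vehicle. HISAT2, HTSeq, DESeq2, GRCm38 and mm10 are named in the submitters' processing notes. Versions, the strand setting and the annotation used are not given in those notes or in the labels. Every gene in a table has a total of at least 1 count. Coordinates are those of the tables (1-based, GRCm38), and exonic lengths come from GENCODE M21. Reads of pseudogenes and overlapping genes may be misassigned.

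HFD against Chow and PCN against Vehicle were each fitted on their own 6 libraries, and Vehicle against HFD and the 4-group test on all 12 over the shared genes, with edgeR 4.0.16 in R 4.3.3 (TMM, filterByExpr with a minimum count of 10, robust quasi-likelihood test, Benjamini-Hochberg over all genes tested, threshold 0.05). A log2 fold change is positive where the group named first is higher. DESeq2 1.42.0 and other settings were alternatives, and the fits were tested on simulated counts. Replicate libraries differed by chi-square values per gene of 19.6 to 108 and each was counted as 1 sample. The members and lists were chosen with earlier results of these data known. Named are the 12, 8 and 8 members of lowest p in the 3 comparisons (mean of at least 1 CPM), the 5 highest and 5 lowest per kb, 15 members chosen by role, the 4 pathway genes of lowest p in each comparison, and any member past the threshold. Protein sequences were not used here.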

Additional observations from a re-analysis of the deposited data

How the results depend on the processing

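The precision is limited by 3 libraries a group, by a Chow group that spans most of the members' range, and by depth for the lowest member, Mrps6. No paired analysis was possible because the libraries carry unique numbers that are not shared between groups. Of the alternatives for the counts and medians over members, 112 stayed within 1.5 times the main count or within 1 SD of the library medians, 13 moved further and 1 changed sign.

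The members of HFD against Chow at an unadjusted p under 0.05, 9 as reported, were 19 with no expression filter (24.7%, all genes 7.89%) and 5 by DESeq2 (6.49%, all genes with a p 3.76%). In HFD against Chow 1 member passed with no expression filter (Mrpl14), or 1.3% of members, where 0.984% of all genes passed. When a library was left out 0 to 1 passed, while the median ran from -0.36 to -0.12. In Vehicle against HFD 1 passed in a fit of the pair's 6 libraries, the members lower in Vehicle numbered 3 to 8 when a library was left out, and with the length trend subtracted (for the count, chosen after the data were seen) the median was 0.18 and 10 were lower. In PCN against Vehicle the median ran from -0.02 to 0.07 and the members lower in PCN from 20 to 41. Among the 4 groups 3 passed by DESeq2's likelihood ratio test, 1 with no expression filter (1.3%, where 0.842% of all genes passed) and 0 to 1 when a library was left out. Over the fits that left out 1 library, log2 fold changes of HFD against Chow ran from -0.08 to 0.09 for Mrpl3, from -0.40 to 0.05 for Mrpl11, from -0.27 to 0.03 for Mrpl45, from -0.16 to 0.11 for Mrpl44 and from -0.32 to 0.11 for Mrps18c. Of the single members, the following turned in HFD against Chow. Without Chow 17 the values were 0.09 (Mrpl3), 0.05 (Mrpl11), 0.03 (Mrpl45), 0.11 (Mrpl44) and 0.11 (Mrps18c). Without Chow 8 they were 0.01 (Mrpl44) and 0.06 (Mrps18c), without HFD 38 0.05 (Mrpl3) and 0.01 (Mrpl44), without HFD 4 0.00 (Mrps18c), and without Chow 17 and Chow 19 together 0.08 (Mrpl3) and 0.09 (Mrpl45). The cause was not tested.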

Other observations

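PCN 27 was the library in which the members differed most among themselves. The SD of their deviations from their 12-library means was 0.31 on the log2 scale there, against 0.13 to 0.21 in the other 11 libraries. It held the highest value over the 12 libraries for 12 members (Mrpl21, Mrpl24, Mrpl32, Mrpl38, Mrpl43, Mrpl9, Mrps10, Mrps17, Mrps18b, Mrps2, Mrps26 and Mrps30) and the lowest for 10 (Mrpl13, Mrpl16, Mrpl18, Mrpl19, Mrpl28, Mrpl45, Mrpl48, Mrps11, Mrps22 and Mrps28). The 12 comprised 7 large-subunit and 5 small-subunit genes with a median exonic length of 2.81 kb, and the 10 comprised 7 and 3 with a median of 2.88 kb. The same library had the lowest sums for the nuclear oxidative phosphorylation genes (74.4% of their 12-library mean) and for the genes of the mitochondrial genome (66.4%). Neither count was the largest among the libraries. Chow 17 held the highest value for 33 members and PCN 11 for 14, and HFD 4 held the lowest for 30, HFD 30 for 13 and Chow 19 for 12. The SD and the counts were not made over all genes, so no background stands beside them. The sets of 12 and 10 were read off the values and were not tested.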
